A study of Mus musculus with 4 samples.

Results

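Voltage-gated sodium and calcium channels, hyperpolarization-activated HCN channels and transient receptor potential (TRP) channels were described in the spinal cord of nerve-injured mice. The genes were taken by name from the array annotation: Scn, Hcn, Trpa, Trpc, Trpm or Trpv followed directly by a digit, or a name starting with Cacna, Cacnb or Cacng. This gave 67 genes among the 30222 gene names on the array, represented by 102 of 39429 probes, and each gene was read from its probe with the highest mean level. *Trpc4ap*, which the naming rule includes, encodes a protein that binds TRPC4 and is not itself a channel.

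The animals were male ICR mice, an outbred strain, 5 to 6 weeks old, and all of them carried a partial sciatic nerve ligation (PSL), made 7 days before the lumbar cord was taken. They had been adrenalectomized, which removes the source of corticosterone (ADX+PSL, given saline to drink), or sham-operated (sham+PSL). Tissue was collected at zeitgeber time (ZT, hours after lights on) 10, near the daily maximum of corticosterone in mice with adrenal glands, or at ZT22, after it had dropped. Each of the 4 conditions was measured on 1 array, all on 1 slide, and neither the side of the cord nor how many mice gave each RNA was stated. No uninjured group was measured on these arrays. There are thus no replicates, every difference between conditions is one between single arrays, and precision is limited by how few arrays there are. The error given beside a ratio is the spot error of the scanner software, which covers measurement only.

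Sodium channels of this family carry the upstroke of the action potential through a large alpha subunit, and beta subunits bind it and modify its gating. Voltage-gated calcium channels are built from a pore-forming alpha1 subunit with alpha2delta and beta subunits, and in nerve terminals they trigger transmitter release. HCN channels conduct an inward current on hyperpolarization that shapes firing rhythm, and TRP channels are cation channels, several of which detect heat, cold or irritants in primary sensory neurons, whose cell bodies lie in the dorsal root ganglia outside the cord.

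Levels are quantile-normalized fluorescence intensities without a unit. Differences are read between arrays for the same probe, since intensities of different probes do not measure which mRNA is more abundant. They are set side by side only to choose which genes to name and to say which probe weighs most in a sum. Values are given in the order sham+PSL ZT10, sham+PSL ZT22, ADX+PSL ZT10 and ADX+PSL ZT22. By a flag of the scanner software, 27097, 26387, 27652 and 25658 of the 39429 probes were well above background, and the lowest such level on each array was 14.9, 18.4, 12.8 and 22.2. Of the 67 channel genes, 53 passed this flag on all 4 arrays, and 7 (*Cacna1b*, *Cacna1c*, *Scn9a*, *Trpa1*, *Trpc6*, *Trpc7* and *Trpv1*) did so on 1 to 3. The remaining 7 (*Cacng1*, *Hcn4*, *Scn7a*, *Scn10a*, *Trpm5*, *Trpv3* and *Trpv5*), each with a single probe, passed it on none. Where 1 array of a pair did not pass, the ratio is given as a bound, "at least N-fold", against the higher of that array's lowest passing level and the probe's own value. No fold is given where this bound is under 1 or where neither array passed.

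**Figure D1:**
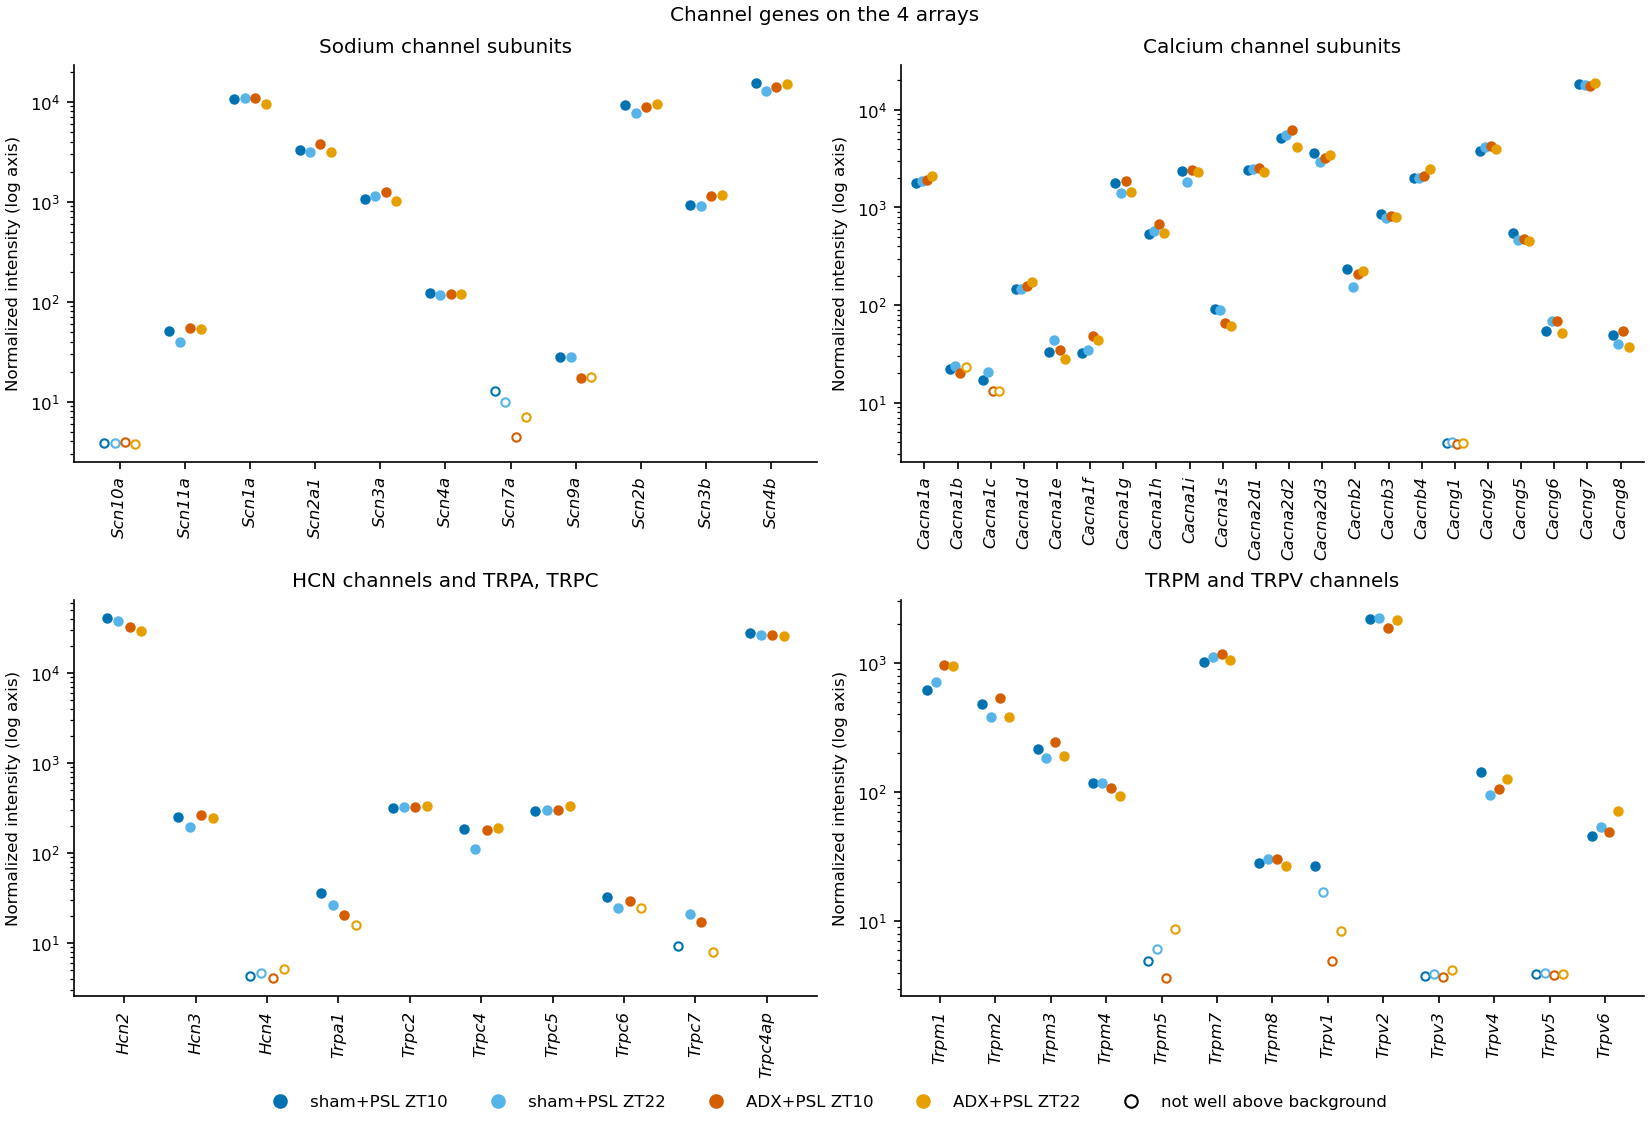
Normalized intensity (log axis) of the channel genes named in the text on the 4 arrays, by family, with 1 point per array and open points where a probe was not well above background. For most genes the 4 points lie close together.

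Most channel genes had nearly the same level under the 4 conditions. Among the 53 genes that passed on all 4 arrays, the range from the lowest to the highest array had a median of 0.28 on the log2 scale and ran from 0.05 to 0.80. The median over the 19055 genes of the array that passed on all 4 was 0.29. The range was under 1.5-fold in 47 of the 53 (88.7%), beside 83.8% of the 19055, so the channel genes were close to the array as a whole.

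Of 10 sodium channel alpha subunits, 7 passed on all 4 arrays. *Scn1a*, a main alpha subunit of inhibitory neurons, was at 10727.5, 10831, 10842 and 9480.1. *Scn2a1* (now *Scn2a*), found in axons of many central neurons, was at 3272, 3177, 3801 and 3159.98. *Scn3a*, an alpha subunit best known from the developing brain, was at 1068, 1149.6, 1263 and 1024. By these probes ADX+PSL ZT22 was the lowest array in the 3 genes, by small amounts, which not all of their other probes showed. Among beta subunits, *Scn4b*, which takes part in resurgent current, was at 15325, 12835, 14016 and 14989. *Scn2b* was at 9329, 7765, 8967 and 9455. Both were lowest in sham+PSL ZT22, with less than 1.5-fold between any 2 arrays.

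Of 10 calcium channel alpha1 subunits, 8 passed on all 4 arrays. *Cacna1a*, the pore of the P/Q-type channel of nerve terminals, was at 1797, 1864, 1900.2 and 2116. *Cacna1i*, a T-type channel that opens at low voltage, was at 2347, 1807, 2424 and 2324, lowest in sham+PSL ZT22, while its other probe was at 141, 143, 183 and 142. *Cacna1b*, the N-type channel that ziconotide blocks in the dorsal horn, was at 22.2, 23.9, 19.9 and 23.4. These *Cacna1b* levels lay close to background and overlapped between operations. Among alpha2delta subunits, *Cacna2d1*, whose protein binds gabapentin, was at 2429, 2496, 2536 and 2285. *Cacna2d3* was at 3619.8, 2889.85, 3223 and 3436. The arrays of both operations overlapped in both genes. Among beta subunits, which bring the pore to the membrane, *Cacnb4* was at 2004, 1996, 2120.4 and 2484, highest in ADX+PSL ZT22. *Cacnb3* was at 859, 779.7, 817 and 803. Several genes of the gamma group encode AMPA receptor auxiliary subunits (TARPs). Of these, *Cacng7* was at 18399, 18053, 17415 and 18724. *Cacng2* (stargazin) was at 3803, 4132, 4252 and 3927. *Cacng5* was at 541, 465, 475 and 457. None of these 3 differed by 1.5-fold between any 2 arrays.

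Of the HCN subunits, *Hcn3* was at 249, 194, 265 and 245, lowest in sham+PSL ZT22. Among TRPC channels, *Trpc5* was at 295, 298, 302 and 333. *Trpc2*, the channel of pheromone-sensing neurons in mice, was at 317, 328, 327 and 335. Both varied by less than 1.5-fold over the arrays. *Trpc4ap* was at 27470.1, 26443, 26366 and 25739. Among the rest, *Trpm7*, a channel with a kinase domain, was at 1028, 1108, 1178 and 1048. *Trpv2* was at 2176, 2236, 1863 and 2142. *Trpv6*, an epithelial calcium channel, was at 46.0, 53.6, 48.8 and 71.2, highest in ADX+PSL ZT22.

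The comparisons of ADX+PSL with sham+PSL ask what differed without the adrenal glands, at the time of high (ZT10) and of declining (ZT22) glucocorticoid. A gene was called, by the limits of the study's methods, at a Z-score of its log2 ratio of 2 or more with a ratio of 2 or more, or at −2 or less with 0.5 or less, when its brighter array passed the background flag. At ZT10, 1 of 60 channel genes was called, *Trpv1*, lower in ADX+PSL, beside 4.76% of 21514 genes. At ZT22, 1 of 58 was called, *Trpc7*, lower in ADX+PSL, beside 3.91% of 20423 genes. Both calls rest on dim probes near background, and neither was made with normexp background correction or when all 4 arrays had to pass the flag. The latter removes both genes by construction, and normexp adds an offset that draws the ratios of dim probes toward 0. Neither setting is thus a separate check of these calls. The *Trpc7* call was also lost with the mean over the gene's probes. At a ratio of 1.5 alone, 6 of 60 passed at ZT10 (3 higher, 3 lower) beside 11.8% of all genes, and 6 of 58 at ZT22 (1 higher, 5 lower) beside 10.4%. These counts, for channels and for all genes, take the measured value of the dimmer array even where it did not pass the flag. With both arrays passing, 4 of 57 channel genes were past 1.5-fold at ZT10, beside 7.1% of 20044 genes, and 2 of 53 at ZT22, beside 6.4% of 19160. At measured values the channel genes thus passed about as often as other genes. Their median log2 ratio was 0.04 at ZT10 and 0.00 at ZT22, against 0.01 and 0.00 over all genes.

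**Figure D2:**
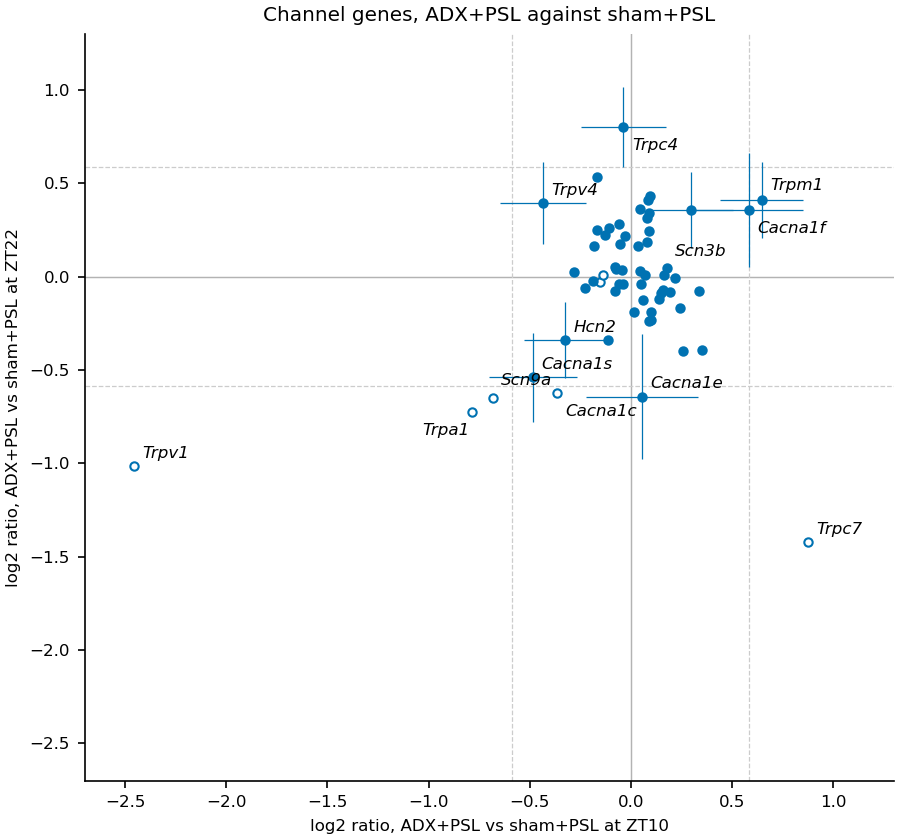
Log2 ratio of ADX+PSL to sham+PSL at ZT10 (x axis) and at ZT22 (y axis) for the 60 channel genes that passed the background flag on at least 1 array. Open points did not pass on 1 array or more and are plotted at their own values, dashed lines mark 1.5-fold, and bars on named closed points are the spot error.

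*Trpv1*, *Trpa1* and *Scn9a*, which are known from sensory neurons, were read near background and were lower in ADX+PSL at ZT10. *Trpv1*, the heat- and capsaicin-gated channel, was at 27.0, 17.0, 4.92 and 8.38, and passed the flag in sham+PSL ZT10 only. ADX+PSL was at least 2.10-fold lower at ZT10, and no fold can be given at ZT22. *Trpa1*, the receptor of mustard oil and other irritants, was at 35.9, 26.5, 20.8 and 16.0. Its log2 ratio of ADX+PSL to sham+PSL was −0.79 at ZT10 (spot error 0.33), and ADX+PSL was at least 1.19-fold lower at ZT22. *Scn9a*, which encodes the NaV1.7 channel needed for pain perception, was at 28.0, 27.7, 17.4 and 17.7. Its log2 ratio was −0.68 at ZT10 (spot error 0.37), and ADX+PSL was at least 1.25-fold lower at ZT22. In *Trpa1* and *Scn9a* both ADX+PSL arrays lay below both sham+PSL arrays, also under each of 4 other scalings. After normexp, whose added offset draws the ratios of dim probes toward 0, the ZT10 ratio was −0.18 for *Trpa1* and −0.07 for *Scn9a*.

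Of other channels of sensory neurons, *Scn11a* (NaV1.9) was at 51.2, 39.3, 54.6 and 53.0, lowest in sham+PSL ZT22. *Trpm8*, the cold and menthol receptor, was at 28.2, 30.6, 30.3 and 26.8, and its operations overlapped. *Scn10a* (NaV1.8) lay between 3.81 and 3.95, at background on every array. *Scn7a*, a sodium-sensing channel also known from Schwann cells, was at 12.8, 9.97, 4.41 and 7.03, likewise at background.

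Markers of peripheral nerve stood beside these values as follows. In bulk tissue, fewer cells of a type and less RNA per cell cannot be told apart. Of 8 Schwann cell markers, 7 were measured. Their median log2 ratio of ADX+PSL to sham+PSL was −1.28 at ZT10 and −0.51 at ZT22. Markers whose dimmer array did not pass were set at their bound in these medians. At measured values, also those below the flag, 4 of 7 and 3 of 6 were called lower. At ZT22 the bounds of *Egr2* (1.69-fold) and *Dhh* (2.18-fold) lay under the 2.32-fold that the Z-score limit needed. The summed level of the Schwann cell markers was 9032, 10024, 7542 and 9144. Most of it came from the *Pmp22* probe, which varied little and so set the sum. At measured values, 5 of the 7 were lower on both ADX+PSL arrays and 1 was higher on both. *Prx*, needed for peripheral myelin and chosen for print after its values were seen, was at 466, 247, 40.9 and 36.3. *Drp2*, the higher one, was at 690, 719, 782 and 795, and *Pmp2* was at background. Of 9 sensory neuron markers, 5 were measured at ZT10 and 3 at ZT22, with medians of −0.05 and −0.05 and 0 called. *Calca* itself was at 17119, 22426, 16355 and 14945, past 1.5-fold lower in ADX+PSL at ZT22. Their summed level was 18295, 23452, 17474 and 16105, most of it from the probe of *Calca*, which motor neurons also express, and *Avil*, *Mrgprd* and *Prdm12* were among those at background on every array. The part of peripheral nerve tissue in the *Trpa1*, *Scn9a* and *Trpv1* values was not tested.

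Among calcium channel alpha1 subunits, *Cacna1s* was lower on both ADX+PSL arrays, and *Cacna1f* was higher on both, as were *Cacna1a* and *Cacna1d* by smaller amounts. Another *Cacna1d* probe, at 45.5, 41.8, 49.6 and 41.6, overlapped between operations. *Cacna1s*, the L-type channel of skeletal muscle, was at 91.8, 89.3, 65.7 and 61.4. Its log2 ratio of ADX+PSL to sham+PSL was −0.48 at ZT10 (spot error 0.22) and −0.54 at ZT22 (spot error 0.24), and its other probe was at background. With normexp these ratios were −0.26 and −0.29. *Cacna1c*, the L-type channel of heart, smooth muscle and brain, was at 16.9, 20.5, 13.2 and 13.3, and passed the flag on the sham+PSL arrays only. ADX+PSL was at least 1.29-fold lower at ZT10, and no fold can be given at ZT22. *Cacna1f*, the L-type channel of photoreceptors, was at 32.3, 34.3, 48.5 and 43.9, with log2 ratios of 0.59 (spot error 0.27) and 0.36 (spot error 0.30), or 0.25 and 0.11 with normexp. Its other probe was at background. *Cacna1e*, the R-type channel, was at 33.3, 44.2, 34.6 and 28.3, highest in sham+PSL ZT22. Its log2 ratio was 0.05 at ZT10 and −0.64 at ZT22 (spot error 0.33), or −0.19 at ZT22 with normexp, and the difference between the times was not tested.

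Of 13 fast skeletal muscle markers, 10 were measured, with medians of −1.98 at ZT10 and −0.19 at ZT22, dim markers again at their bound. At measured values, also those below the flag, 7 of 10 and 1 of 8 were called lower in ADX+PSL. Over all genes, 4.76% and 3.91% were called in either direction. *Myh4*, *Tnnc2*, *Tnni2* and *Myl1* are also among the genes that the study selected from these same arrays, partly for being lower in ADX+PSL. The calls of *Ckm* at ZT10 and *Tnnt3* at ZT22 rest on such levels, as their bounds were 1.89-fold and 1.35-fold. The summed level of the fast skeletal muscle markers was 3092, 527, 437 and 419, highest in sham+PSL ZT10. The *Tnni2* probe gave the largest part of it on the other 3 arrays and *Myh4*, at 811 in sham+PSL ZT10 and at background elsewhere, on that array, while *Myh1*, *Myh2* and *Mylpf* were at background. *Scn4a*, the sodium channel of skeletal muscle, was at 124, 117, 119.8 and 119.6. *Cacng1*, the muscle gamma subunit, lay between 3.81 and 3.92, at background. Of 5 vascular smooth muscle markers, 4 were measured at ZT10 and 3 at ZT22, with medians of −0.77 and −0.41 and 0 called. The summed level of these markers was 1670.35, 1180.04, 1009.9 and 948. The *Tagln* probe gave the largest part, and *Des* was at background. The part of muscle tissue in the *Cacna1s* and *Cacna1c* values was not tested.

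Of brighter probes, *Hcn2* was lower and *Scn3b* higher on both ADX+PSL arrays. *Hcn2*, an HCN subunit of nociceptors and many central neurons, was at 40695, 37224, 32492 and 29420.0, with log2 ratios of ADX+PSL to sham+PSL of −0.32 and −0.34 (spot error 0.20). Another *Hcn2* probe, which does not overlap the first, had −0.24 and 0.07, so only the first was lower at both times. *Scn3b*, a sodium channel beta subunit with a single probe, was at 927, 917, 1141 and 1175, with log2 ratios of 0.30 and 0.36 (spot error 0.20).

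Both ADX+PSL arrays lay below both sham+PSL arrays in 9 of 60 channel genes, beside 15.8% of 21955 genes, and above them in 8 of 60, beside 19.4%. The channel genes thus stood near or under the share of the whole array. These counts also use measured values on arrays that did not pass the flag, on which the places of *Trpv1* and *Cacna1c* rest. The lower genes beside these were *Cacna1s*, *Hcn2*, *Scn9a*, *Trpa1*, *Trpm4*, *Trpv2* and *Trpc4ap*. The higher were *Cacna1a*, *Cacna1d*, *Cacna1f*, *Cacnb4*, *Scn3b*, *Scn11a*, *Trpc5* and *Trpm1*. Of the 17 genes, 12 (7 below and 5 above) kept their side under all 4 other scalings. The exceptions were *Cacna1a* and *Scn11a* with normexp, and *Trpc4ap*, *Trpc5* and *Trpv2* without normalization between arrays.

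*Trpm1*, a channel of retinal bipolar cells and melanocytes, had the highest ratio of ADX+PSL to sham+PSL at ZT10 among channel genes that passed on all 4 arrays. Its brightest probe was at 621, 714, 973 and 948, with log2 ratios of 0.65 and 0.41 (spot error 0.20). The other 3 *Trpm1* probes were at background on every array. The sequence of the bright probe is printed because its composition is unusual, beside the probes of *Trpv1* and *Cacna1c* and a probe of *Trpc4* described further on. Capitals mark the longest unbroken run of A and G.
Trpm1 probe: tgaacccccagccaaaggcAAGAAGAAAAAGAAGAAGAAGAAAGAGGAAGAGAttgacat
Trpv1 probe: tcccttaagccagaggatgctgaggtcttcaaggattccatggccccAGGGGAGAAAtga
Cacna1c probe: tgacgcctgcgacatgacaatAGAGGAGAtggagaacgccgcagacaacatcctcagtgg
Trpc4 probe: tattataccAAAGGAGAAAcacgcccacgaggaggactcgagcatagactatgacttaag
In mm9, the build of the array annotation, these probes lie at chr7:71371607-71371666 (plus strand), chr11:73073950-73074009 (plus strand), chr6:118544079-118544138 (minus strand) and chr3:54121970-54122029 (plus strand).

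The *Trpm1* probe had a run of 34 A and G bases, against 10, 8 and 10 in the other 3 and a median of 6 over all probes. A run as long or longer was held by 65 of the 39429 probes (0.165%), and 64 of these passed the background flag on at least 1 array. Both ADX+PSL arrays lay above both sham+PSL arrays in 60 of the 64 (93.75%), beside 18.8% of the other probes. Their median log2 ratio was 0.52 at ZT10 and 0.28 at ZT22, and the count was between 60 and 63 under the 4 other scalings. This comparison of probes was chosen after the *Trpm1* values were seen. The part of the A and G run in the *Trpm1* values was not tested, nor whether labelling or hybridisation differed between the sham+PSL and ADX+PSL arrays, which would bear on every ratio between them.

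The comparisons of ZT10 with ZT22 ask what differed between high and declining glucocorticoid in sham+PSL, and between the same times without adrenal glands in ADX+PSL. In sham+PSL, 0 of 60 channel genes were called, beside 4.52% of 20990 genes, and in ADX+PSL 0 of 56, beside 3.93% of 20932 genes. At a ratio of 1.5 alone, 4 of 60 passed in sham+PSL (3 higher and 1 lower at ZT10) beside 10.9% of all genes, and 1 of 56 in ADX+PSL beside 9.22%. With both arrays passing the flag, 2 of 58 were past 1.5-fold in sham+PSL (*Cacnb2* and *Trpc4*), beside 6.67% of 19628 genes, and 0 of 53 in ADX+PSL, beside 5.14% of 19330. At measured values the channel genes passed less often than the array as a whole, a difference that was not tested. Their median log2 ratios, 0.02 for sham+PSL and 0.05 for ADX+PSL, stood against 0.01 and 0.01 over all genes.

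**Figure D3:**
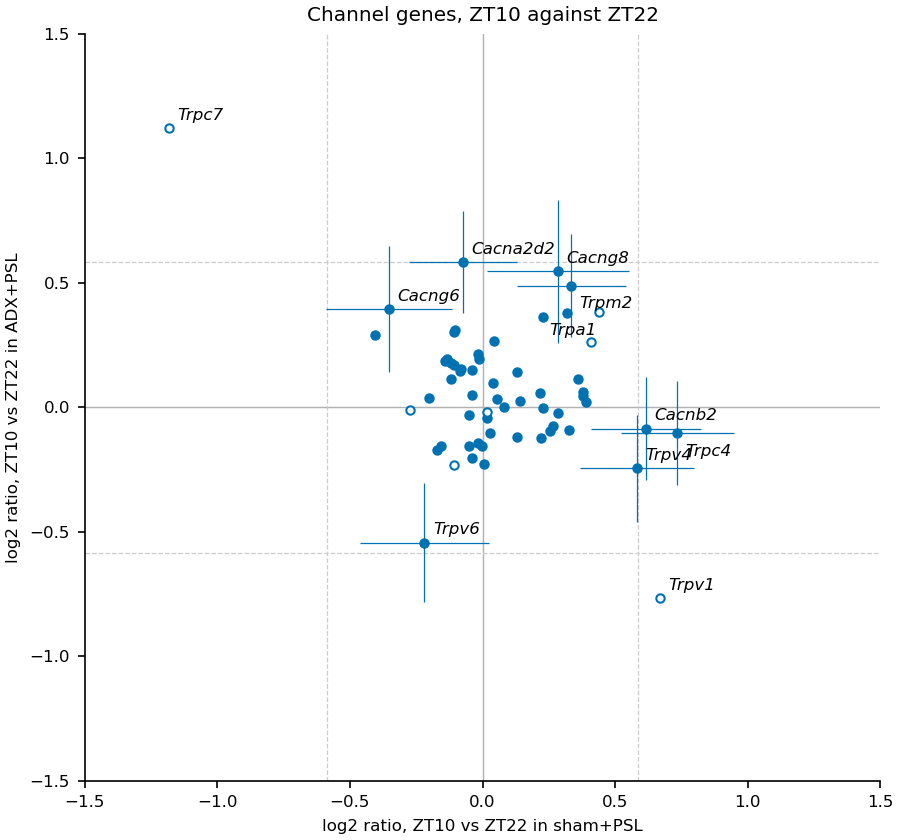
Log2 ratio between the time points (ZT10 over ZT22) for sham+PSL (x axis) and ADX+PSL (y axis), for the 60 channel genes that passed the background flag on at least 1 array. Open points did not pass on 1 array or more, dashed lines mark 1.5-fold, and bars on named closed points are the spot error.

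*Trpc4*, a receptor-operated channel, was lower in sham+PSL ZT22 than on the other 3 arrays. Its brightest probe was at 183, 110.3, 179 and 192. Between the time points its log2 ratio was 0.73 for sham+PSL (spot error 0.21) and −0.10 for ADX+PSL. A further probe that does not overlap it, the one printed above, was at 174, 79.3, 148 and 136, with time ratios of 1.13 (spot error 0.22) and 0.12. At ZT22 the log2 ratio of ADX+PSL to sham+PSL was 0.80 by the first probe and 0.78 by the further one. Both probes were lowest on the same array, and whether the time differences differ between operations was not tested.

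*Cacnb2* and *Trpv4* were also lowest in sham+PSL ZT22. *Cacnb2*, a calcium channel beta subunit, was at 234, 153, 208 and 221, with a log2 ratio between the time points of 0.61 for sham+PSL (spot error 0.21). Another *Cacnb2* probe that passed on all 4 arrays had −0.02, so the probes differed. *Trpv4*, an osmotically gated channel, was at 143, 95.7, 106 and 126, with time ratios of 0.58 for sham+PSL (spot error 0.21) and −0.25 for ADX+PSL (spot error 0.22), the former 0.39 with normexp. The red blood cell markers were lowest on the same array. Of 8 such markers, 6 were measured, all 6 were called higher at ZT10 than ZT22 in sham+PSL, and the median log2 ratio of ADX+PSL to sham+PSL was −0.51 at ZT10 and 2.43 at ZT22. Their summed level was 135912, 18767, 95075 and 89810.4, most of it from the *Hba-a2* probe, and *Epb4.2* was among those at background. The part of blood in the *Trpc4*, *Cacnb2* and *Trpv4* values was not tested.

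*Trpc7*, a diacylglycerol-activated channel, was at 9.43, 21.4, 17.3 and 7.96, and passed the flag in sham+PSL ZT22 and ADX+PSL ZT10 only. Within sham+PSL, ZT10 was at least 1.44-fold lower than ZT22. At ZT10, ADX+PSL was at least 1.16-fold higher than sham+PSL. The lowest passing level in ADX+PSL ZT22 lay above both measured *Trpc7* levels, so no fold can be given against that array, on which its call rests. Another *Trpc7* probe, which overlaps this one, was at background on every array. Within sham+PSL, the *Trpv1* level at ZT10 exceeded that at ZT22 by at least 1.47-fold.

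Some channels were higher at ZT10 than at ZT22 under both operations, and only a selection of them is described here. *Trpm2*, a channel opened by ADP-ribose under oxidative stress and known from microglia, was at 482, 382, 539 and 384, with time ratios of 0.33 and 0.49 on the log2 scale (spot error 0.20). The 8 microglial markers had median time ratios of −0.43 for sham+PSL and −0.28 for ADX+PSL. In ADX+PSL, *Cx3cr1* (−0.01) and *Itgam* (0.01) hardly differed between times. The part of microglia in the *Trpm2* values was not tested. *Cacna1g*, a T-type calcium channel, was at 1773, 1421, 1862 and 1432, with ratios of 0.32 and 0.38, or 0.19 and 0.18 with normexp, while its other probe, at 1325, 932, 1058 and 1025, had 0.51 and 0.05. *Cacng8*, another TARP, was at 48.9, 40.1, 53.8 and 36.9, with ratios of 0.29 (spot error 0.27) and 0.55 (spot error 0.29), or 0.16 and 0.18 with normexp. By these probes both ZT10 arrays lay above both ZT22 arrays, whereas the other *Trpm2* probe, at 83.3, 71.4, 98.1 and 85.4, overlapped between times. In *Trpc6*, another diacylglycerol-activated channel, at 32.4, 24.4, 29.4 and 24.5, both ZT10 arrays also lay above both ZT22 arrays. Its ADX+PSL ZT22 level did not pass the flag, and its time ratio of 0.41 in sham+PSL shrank with normexp, as given further on. Both ZT10 arrays lay above both ZT22 arrays in 12 of 60 channel genes, beside 17.9% of all genes, and below them in 5 of 60, beside 15.4%. *Cacna2d2*, an alpha2delta subunit, was at 5189.99, 5467, 6206 and 4142, with a time ratio of −0.08 for sham+PSL and 0.58 for ADX+PSL, while its other probe had 0.20 and 0.00.

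**Figure D4:**
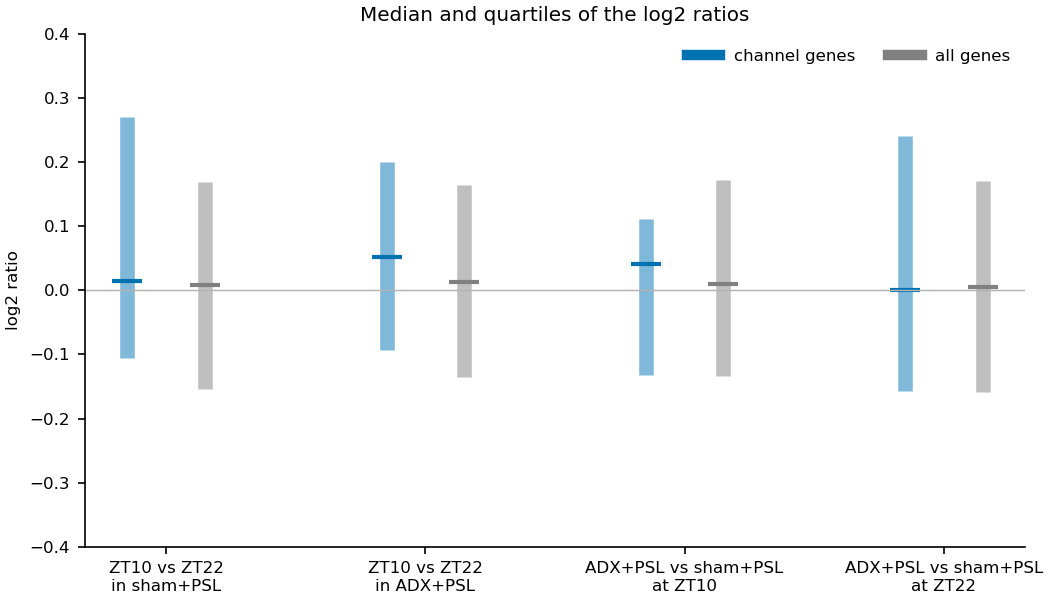
Median (line) and quartiles (bar) of the log2 ratios of the measured channel genes and of all measured genes in the 4 comparisons. The quartiles of the channel genes lie between −0.16 and 0.27 and their medians between 0.00 and 0.05.

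A fit of operation and time together over the 4 arrays (limma, with 1 residual degree of freedom) called 0 of 28845 probes for operation (0%) and 0 for time (0%) at a Benjamini-Hochberg adjusted p under 0.05, and so 0 of 60 channel genes. At an unadjusted p under 0.05 it had 7 of 60 channel genes for operation, beside 6.25% of all probes, and 2 of 60 for time, beside 4.92%. Among the 7 for operation, *Trpa1*, *Scn9a*, *Trpv1* and *Cacna1c* rest partly on levels that did not pass the background flag. That count is therefore not one of measured differences alone. The smallest p for operation was that of *Trpa1*, with an effect of −0.76 ± 0.12 (SE) on the log2 scale and an adjusted p of 0.712 (limma). *Scn9a* followed with −0.67 ± 0.12 and an adjusted p of 0.732 (limma). For time the smallest was again *Trpa1*, with 0.41 ± 0.12 and an adjusted p of 0.932 (limma). In both genes ADX+PSL was lower in both pairs, but at ZT22 its level did not pass the background flag, so the size and SE of these effects are not measurements of the mRNA and the bounds above hold instead. With 4 arrays, a count of 0 says nothing of which channels did not differ.

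Genes with several probes gave a comparison within the array. Of the 24 channel genes with 2 or more probes, 18 had at least 2 that passed on all 4 arrays, and the largest difference between their log2 ratios in any comparison had a median of 0.40. It reached 1 only in *Cacna1h*, a T-type calcium channel. The brightest *Cacna1h* probe was at 535, 576, 676 and 545, with log2 ratios of ADX+PSL to sham+PSL of 0.34 and −0.08. Another *Cacna1h* probe was at 40.0, 81.1, 23.7 and 26.0, with −0.76 (spot error 0.29) and −1.64 (spot error 0.34). The remaining *Cacna1h* probe, at 50.8, 64.7, 58.9 and 52.3, had 0.21 and −0.31, in the direction of the brightest, so that 1 of the 3 probes stood apart.

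The tissue carried the markers of spinal cord on every array. All 11 neuronal, 6 motor neuron, 7 astrocyte, 6 oligodendrocyte, 8 microglial and 6 endothelial markers passed the flag on all 4 arrays, as did the 4 ependymal markers that were on the array. Median log2 ratios of ADX+PSL to sham+PSL at ZT10 and ZT22 were −0.04 and −0.05 in neuronal markers and −0.07 and −0.24 in those of motor neurons. They were 0.04 and −0.09 for astrocytes, 0.00 and −0.13 for oligodendrocytes, and −0.16 and −0.31 for microglia. Endothelial markers had 0.06 and −0.01, and ependymal markers 0.41 and 0.11. Markers of meningeal fibroblasts differed far more: all 13 were lower on both ADX+PSL arrays, 12 of 13 were called at ZT10 and 10 of 13 at ZT22, and their medians were −2.40 and −1.80, with 1 marker at its bound at ZT22. Their summed level was 21045, 17158, 5813 and 6289, with the largest part from the *Dcn* probe. *Mfap4*, *Mfap5* and *Pcolce* are also among the genes that the study selected from these same arrays, partly for being lower in ADX+PSL.

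**Figure D5:**
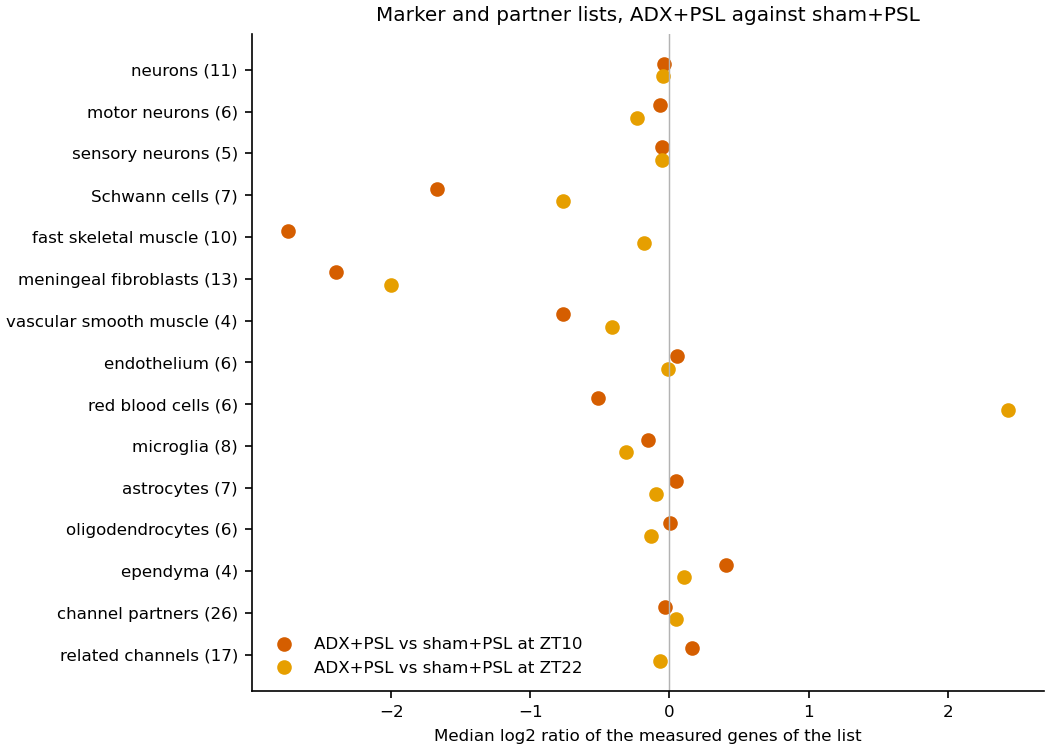
Median log2 ratio of ADX+PSL to sham+PSL at ZT10 and at ZT22 for the measured genes of each marker or partner list (number of genes in parentheses), all at their measured values. Fast skeletal muscle lies far to the left at ZT10, and meningeal fibroblasts, Schwann cells and vascular smooth muscle lie to the left at both times. Red blood cells lie to the right at ZT22. The lists of neurons and sensory neurons lie near 0, and motor neurons lie at −0.24 at ZT22.

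Of 28 genes whose proteins bind these channels, 27 were on the array and 26 were measured, with median log2 ratios of ADX+PSL to sham+PSL of −0.03 at ZT10 and 0.05 at ZT22, and 0 called in any comparison. *Stac2*, whose protein binds L-type channels, was at 2594, 2219.8, 3735 and 3965, higher on both ADX+PSL arrays. *Rem2*, a small GTPase that inhibits calcium channels, was at 117, 54.2, 58.4 and 56.2, high in sham+PSL ZT10 only. *Stac2* and *Rem2* were chosen for print after their values were seen. Of 23 related channels outside the naming rule, 17 were measured, with medians of 0.16 and −0.07 and 0 called.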

How the data were processed

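RNA of 4 conditions was hybridised to 1 single-colour Agilent whole mouse genome array each. The authors deposited spot intensity values of the Feature Extraction software (version 10.7.1.1 per the file headers, 9.5.1.1 per the labels), with background flags, and a table of quantile-normalized intensity, which was log2-transformed here. Between 25658 and 27652 of 39429 probes per array were well above background. Of the 67 genes, 63 were matched by accession to a symbol in the RefSeq table, and 2 have another symbol now (*Scn2a1* is *Scn2a*, *Trpc2* is *Xntrpc*). Z-scores centred and scaled each comparison's log2 ratios by the mean and SD of the 39429 probes. R 4.3.3, limma 3.58.1, Python 3.11.15, numpy 2.4.6 and pandas 2.3.3 were used. The call rule and the fit were tested on simulated data. The fit recovered most or all planted changes with noise equal over probes, and none with each probe's own residual as noise. Genes were named if called, among the 5 largest ratios of a comparison or the 5 smallest p of a fit, among the 3 highest levels of their class, known from muscle, heart or sensory neurons, discordant between probes, or passing the background flag on some arrays only. Some genes that this rule names are not reported here. The members and lists were chosen with earlier results of these data known. Alternatives were other normalizations, background filters, limits and probe rules.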

Additional observations from a re-analysis of the deposited data

Results flagged for a closer look

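Some probes other than the brightest of their gene differed by 2-fold or more. The *Cacna1h* probe that stood apart from the other *Cacna1h* probes differed by 2.03-fold between the sham+PSL arrays, higher at ZT22, and by 3.12-fold between operations at ZT22, lower in ADX+PSL. The further *Trpc4* probe differed by 2.19-fold between the sham+PSL arrays, higher at ZT10. A *Trpm3* probe was at 3.45, 7.95, 4.55 and 60.025, and passed the background flag in ADX+PSL ZT22 only. It was at least 4.68-fold lower in ADX+PSL ZT10 than in ADX+PSL ZT22, and at ZT22 it was at least 3.26-fold higher in ADX+PSL than in sham+PSL. The other *Trpm3* probes that passed on all 4 arrays had log2 ratios of 0.05 and 0.30 in the latter comparison.

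In 3 genes that passed on all 4 arrays the same contrast ran in opposite directions in both pairs of arrays, each by more than its spot error. The spot error covers measurement only. How many of all genes did the same is not given here, so the count is not read as a trait of the channels. For *Cacna2d2* the log2 ratio of ADX+PSL to sham+PSL was 0.26 at ZT10 and −0.40 at ZT22, while its other probe had 0.02 and 0.22 and so did not change direction. For *Cacng6*, a gamma subunit, it was 0.35 and −0.39, and the time ratio was −0.35 for sham+PSL and 0.39 for ADX+PSL. For *Trpv4* it was −0.43 and 0.39, and the time ratio was 0.58 for sham+PSL and −0.25 for ADX+PSL. With normexp the *Cacng6* ratios were 0.21 and −0.17 between operations and −0.13 and 0.25 between times. The operation and time ratios of a gene rest on the same 4 arrays. Whether the ratios of a pair differ was not tested, as each condition has 1 array.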

How the results depend on the processing

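No paired analysis was possible because no replicates exist to be paired, and the fit of operation with time as a term is the nearest to one. The counts of called channel genes are small, so that 1 dim gene moves them. For ZT10 against ZT22 in sham+PSL, 0 became 4 at a ratio of 1.5 and 1 at a ratio of 2, both without a Z-score. In ADX+PSL, 0 became 1 with quantile normalization of the raw signals, with a 75th percentile shift, without normalization, with no background filter, with the mean over a gene's probes, and at a ratio of 1.5 or 2. The gene was *Trpm5* without a filter, *Trpm3* with the mean over probes and *Trpc7* otherwise. For ADX+PSL against sham+PSL at ZT10, 1 became 0 with normexp or with measurement required on all 4 arrays, 2 without a filter and 6 at a ratio of 1.5. At ZT22, 1 became 0 with normexp, with measurement on all 4 arrays and with the mean over probes, and 6 at a ratio of 1.5. Requiring all 4 arrays removes *Trpv1* and *Trpc7* by construction, and the cause of the other differences was not tested.

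The median ratios moved by less than the median spot error under every alternative, and the count of genes whose operations do not overlap was between 17 and 20. The fit called 0 channel genes under each of its 6 alternatives, while over all probes it called up to 39 for operation and up to 14 for time, both with an intensity trend. Without normalization, the median of all genes moved to 0.12 in ADX+PSL against sham+PSL at ZT22. Of 708 single ratios of named genes under the 4 other scalings, 695 moved by less than their spot error, and 13 by more, all with normexp. A change of sign was seen in 50 of the 708, each for a log2 ratio of at most 0.18 in size and by less than its spot error. With normexp the log2 ratio at ZT10 shrank to −0.18 for *Trpa1* and −0.07 for *Scn9a*, and the ratio between the sham+PSL times shrank to 0.10 for *Trpa1* and 0.01 for *Trpc6*. Without normalization, the ratio of ADX+PSL to sham+PSL at ZT22 was −0.20 for *Hcn2* and 0.04 for the brightest *Cacna1h* probe. The low signal over background of *Trpa1*, *Trpv1*, *Scn9a*, *Cacna1c* and *Trpc7* limits what can be said of them.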
